A study of Mus musculus with 9 samples.

Results

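The motile cilium genes followed here were 55 mouse genes that encode the axonemal dyneins and the other working parts of a beating cilium, the factors that assemble the dyneins, and the regulators of the multiciliated cell. They were chosen by name, and a probe was taken as theirs when its transcript accession belonged to one of them. Of the 55 genes, 50 had at least 1 probe (76 probes in all), out of 22909 genes that could be named on the array. Ccdc114, Armc4, Dnah3, Dnah12 and Ccdc40 had no probe matched by accession and carry no value here. Where a gene had several probes, the probe with the highest mean signal over the 9 arrays stood for it.

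The samples were left lungs of male mice. In the allografts, a left lung of a C57BL/10 donor was placed in the chest of a C57BL/6 recipient, a pair of inbred strains that share the major histocompatibility type and differ at minor antigens. The grafts were taken at day 21 after surgery and were sorted by their histology into 3 grafts with obliterative bronchiolitis (OB), the fibrous closing of small airways, and 3 grafts without it (non-OB). The 3 sham lungs came from mice that had a thoracotomy and no transplant, also at day 21, and the study used mice of both strains for them (its supplement names sham 1 as C57BL/10 and the other two as C57BL/6). Which cells of a graft came from the donor and which from the recipient was not measured, and each lung was divided between histology and RNA, so the airways in the RNA piece were not the ones seen on the slide. Total RNA of each lung was hybridised to 1 single-colour Agilent 60K array.

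Motile cilia cover the multiciliated cells of the airways and move mucus towards the throat. Their core, the axoneme, is a ring of doublet microtubules around a central pair: outer and inner dynein arms pull neighbouring doublets along each other, nexin links hold the doublets together, and radial spokes pass signals between the central apparatus and the arms. FOXJ1 and the RFX factors switch on the genes of these parts, and geminin-family proteins and cyclin O start the production of many basal bodies in 1 cell.

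Signals are given as log2 of the processed signal after each array was scaled to the same trimmed mean. Array by array, 58.6% to 69.6% of the probes were well above background, no member spot was saturated, and no pair of arrays held identical values. Of the 50 members, 46 were well above background on all 9 arrays and 48 on all 3 sham arrays. The arrays lay on 4 slides. Sham 1 and sham 2 shared slide 1 with OB 1 and non-OB 1, sham 3 was alone on slide 4, and slides 2 and 3 carried 1 OB and 1 non-OB array each. Each array was 1 animal. Because these were whole pieces of lung, fewer ciliated cells and less RNA per ciliated cell cannot be told apart.

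Motile cilium genes were lower in the OB grafts than in the sham lungs. Of the 50 genes, 47 had a lower mean in OB, and the median log2 change was -1.16, or 2.24-fold lower, whereas the median over all 56601 probes was 0.08 and that over the 15891 genes above background in sham was -0.19. In limma, with Benjamini-Hochberg adjustment over all probes and a 2-fold threshold, 9 members were called lower (18% of them) and 0 higher. Of all probes, 2.43% were called lower and 2.72% higher, and of the genes above background in sham, 5.17% were called lower. At an unadjusted p under 0.05, 39 members were lower and 0 higher, and of all 56601 probes 6351 were lower and 4839 higher. The 9 were Dnah9, Dnai1, Dnah6, Hydin, Spag6l, Spag16, Tekt4, Tppp3 and Pifo. The OB and sham arrays did not overlap in 44 members (88%), with OB below, which was so for 16.2% of all probes and for 32.8% of the genes above background in sham.

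The count of calls rested on single arrays, while the direction did not. It was 2 without OB 2, OB 3 or sham 1, 0 without sham 2 or sham 3, and 18 without non-OB 1, whose spread enters the fit. With the slide as a block 0 members were called, at a median change of -1.35. Of all 56601 probes, that fit called 0 lower and 4 higher. In it, only slide 1 held both sham and graft arrays, and the slides without sham entered through their difference between OB and non-OB. On slide 1 alone, with 1 OB and 2 sham arrays, the median change of the members was -0.92. No member was called higher in OB under any setting tried.

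**Figure D1:**
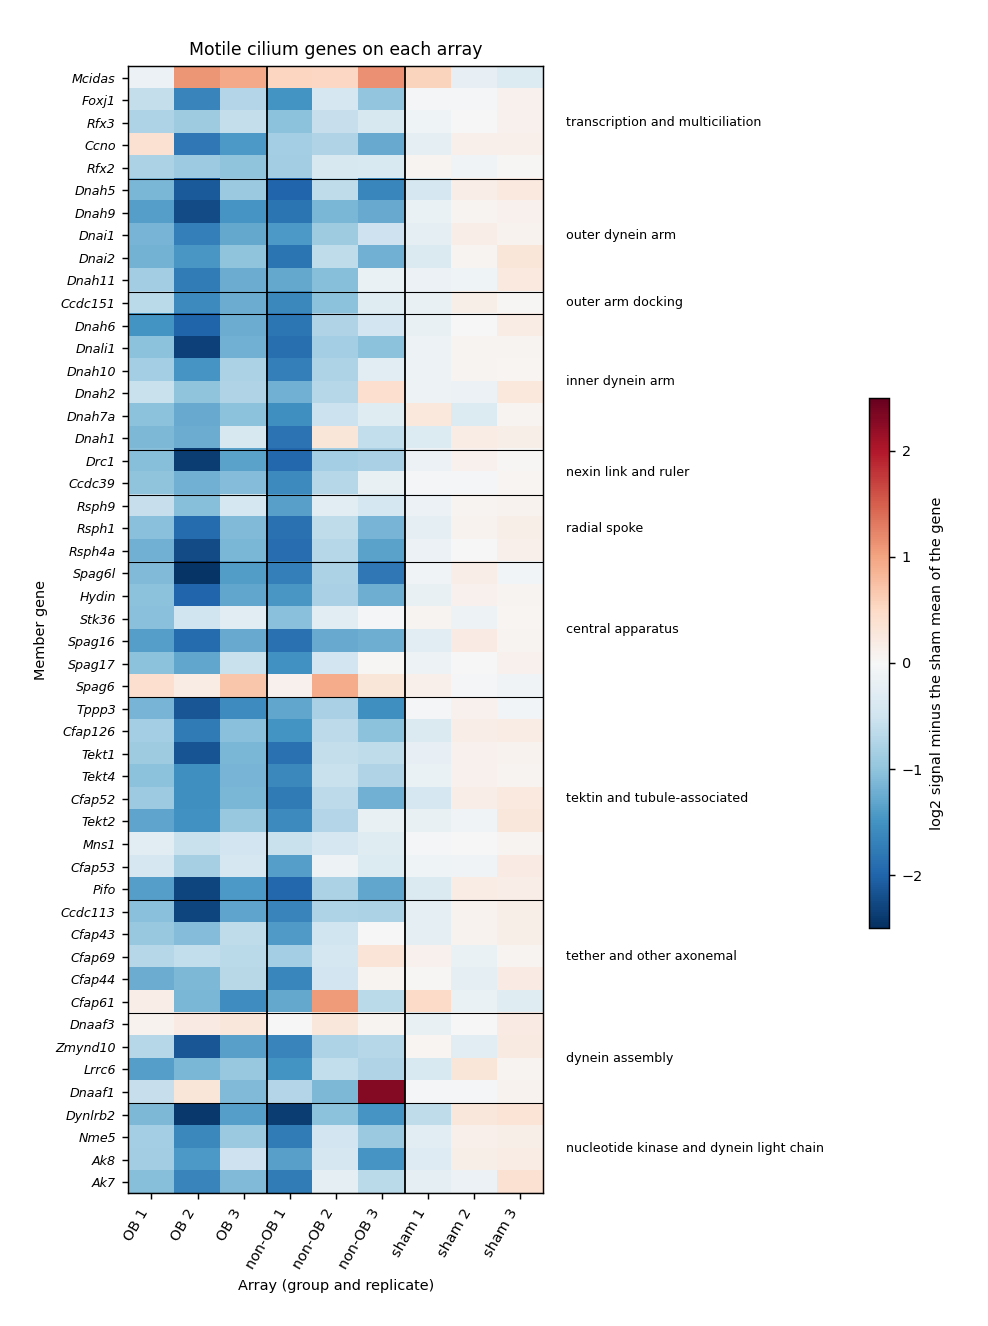
Each row is a member gene, grouped by its part in the cilium and ordered by its sham level, and each column is 1 array. Colour gives the log2 signal minus the mean of the 3 sham arrays for that gene, from blue (lower) to red (higher). OB 2 and non-OB 1 are the darkest columns, and Mcidas, Spag6 and Dnaaf3 stand out against the blue of the other rows.

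Non-OB grafts were lower too. In 46 of 50 members the non-OB mean was below that of sham, with a median log2 change of -0.95 (all probes 0.13, genes above background in sham -0.13). limma called 2 members lower (4%), Dnah9 and Spag16, and 0 higher, against 0.71% of all probes called lower and 1.81% higher, and 1.53% of the genes above background in sham called lower. At an unadjusted p under 0.05, 34 were lower and 0 higher, and of all 56601 probes 4516 were lower and 5175 higher. In 37 members (74%) the 3 non-OB arrays lay below the 3 sham arrays, against 12.6% of all probes and 26.6% of the genes above background in sham. The count was still 2 without OB 2 and was 0 without any other single array, whether OB, non-OB or sham. With the slide as a block 0 members and 0 of all probes were called, at a member median of -1.07. On slide 1 alone, with 1 non-OB array, the member median was -1.48. This comparison shares its sham arrays with that of OB, so the values of both were set side by side and not counted as separate support.

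Between OB and non-OB grafts no difference was detected. limma called 0 members in either direction (0.0% of all probes were called in either direction), 0 had an unadjusted p under 0.05 in limma or in the methods' t-test, and in 0 members did the arrays of the groups not overlap (2.86% of all probes lay lower in OB on all arrays and 1.09% higher). The OB mean was below the non-OB mean in 42 of the 50 members, with a median log2 difference of -0.23 (all probes -0.05). The 95% confidence interval of the difference excluded a halving in OB for 22 members, and both a halving and a doubling for 21. For the other members the interval still held a 2-fold difference. The direction differed from slide to slide. Slides 1, 2 and 3 each held 1 OB and 1 non-OB animal, so slide and animal cannot be told apart. The members on 1 slide are thus 1 pair of animals and not replicates. On slide 1 the OB graft was higher than the non-OB graft in 49 of 50 members (median 0.59), on slide 2 it was lower in 48 (median -0.77), and on slide 3 it was lower in 46 (median -0.36). Leaving out 1 array moved the median to -0.01 without OB 2, -0.50 without non-OB 1, -0.06 without non-OB 2 and -0.09 without non-OB 3.

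Taken as 1 group of 6, the allografts gave the most calls. limma called 21 members lower (42%) and 0 higher, against 2.54% of all probes called lower and 3.27% higher, and 5.39% of the genes above background in sham called lower, and the median log2 change was -1.05. All 9 members called in OB and both called in non-OB were among the 21. The others were Dynlrb2, Rsph4a, Dnah5, Drc1, Dnali1, Ccdc113, Rsph1, Dnai2, Cfap52, Cfap126, Nme5 and Lrrc6. In 36 members (72%) all 6 grafts lay below all 3 sham lungs (10.4% of all probes, 22.8% of the genes above background in sham). The count fell to 8 without OB 3 or sham 1, 11 without non-OB 1, 2 without sham 2 and 3 without sham 3. It was 0 with the slide as a block (median -1.22), where 366 of all 56601 probes were called lower. On slide 1 alone (median -1.22) it was 0 as well, and 0 of all probes were called lower.

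**Figure D2:**
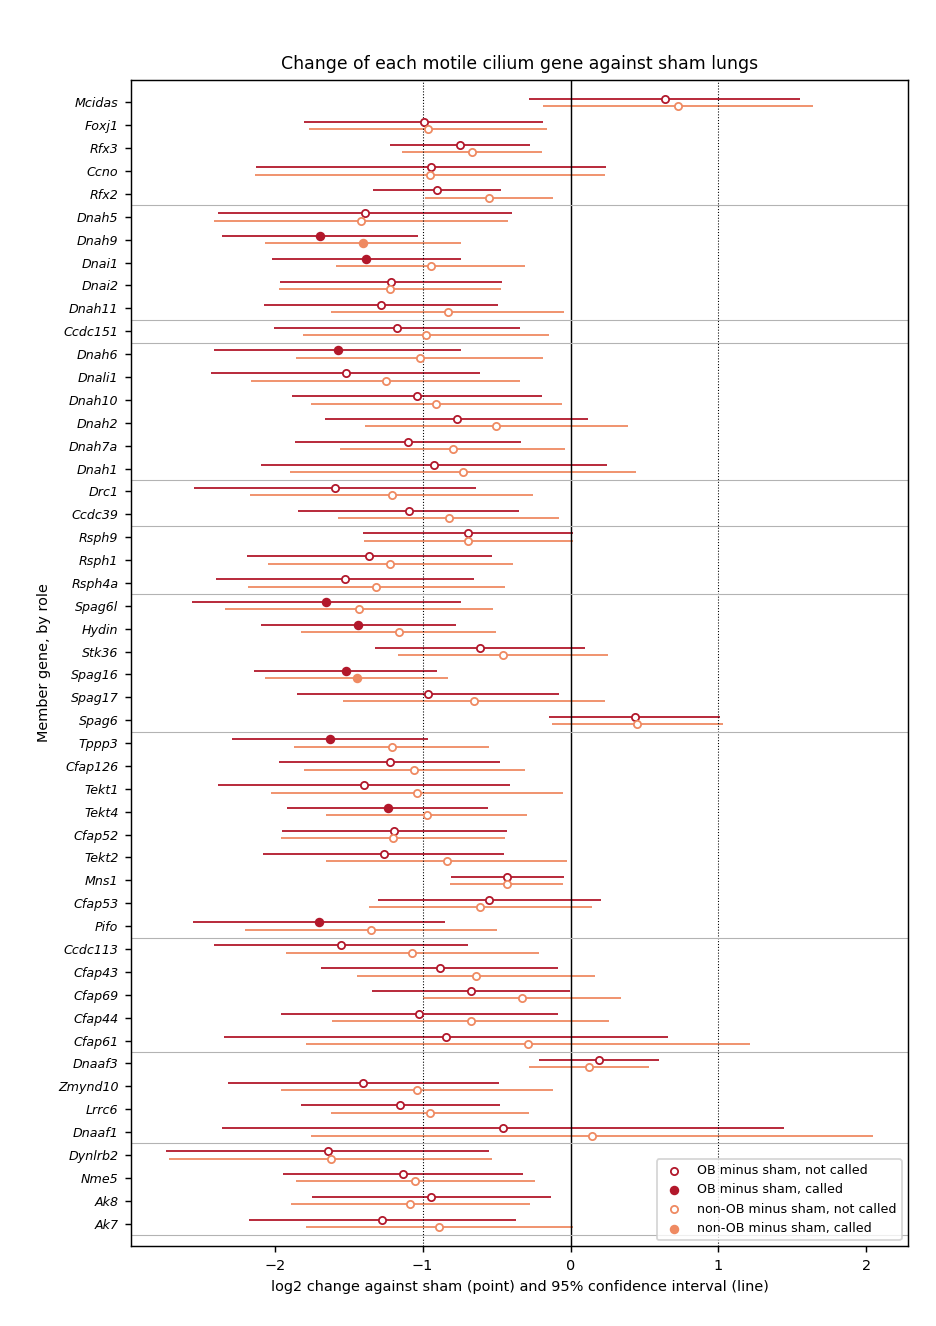
Points give the log2 change of each member against sham, dark red for OB and orange for non-OB, with lines for the 95% confidence interval. Filled points were called at an adjusted p under 0.05 and a 2-fold change, and dotted lines mark a 2-fold change either way. Nearly all points lie left of 0, and the OB and non-OB intervals of each gene overlap.

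The spread among grafts was wide and ran through the whole set. Averaged over the 48 members above background in sham, and set against the sham mean of each gene, the log2 level was -0.91, -1.47 and -0.94 in OB 1 to 3, -1.46, -0.61 and -0.60 in non-OB 1 to 3, and -0.16, 0.03 and 0.12 in sham 1 to 3. OB 2 and non-OB 1 were the lowest. OB 2 held the lowest of the 9 values in 21 of the 48 genes and non-OB 1 in 22, and these arrays lay on different slides. Group means were -1.10 ± 0.32 in OB and -0.89 ± 0.49 in non-OB (SD, n = 3 each), so the difference between the graft groups was smaller than the spread within either. All 6 grafts were below all 3 sham arrays. That order of groups was the same under the 75th percentile, quantile, normexp and normexp with quantile scalings, in which OB 2 stood at -1.60, -1.64, -1.12 and -1.27 and non-OB 1 at -1.35, -1.36, -1.03 and -1.05. Of the sham lungs, sham 1 was the lowest. By level on the array, the 24 dimmer of these genes had a median change of -1.13 in OB and the 24 brighter -1.23, with 5 and 4 called.

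Among the regulators, Foxj1, the master factor of motile cilia, gave log2 signals of 10.99, 9.94 and 10.85 in the OB grafts, 10.10, 11.16 and 10.60 in the non-OB grafts and 11.53, 11.53 and 11.70 in the sham lungs. Every graft was below every sham lung, and OB 2 and non-OB 1 were again lowest. Its change was -0.99 ± 0.35 (SE, adjusted p = 0.162) in OB and -0.96 ± 0.35 (SE, adjusted p = 0.222) in non-OB, not called in either. Rfx2, an RFX factor of ciliated cells and of spermatids, stood at 5.77, 5.64 and 5.54 in the OB grafts, 5.69, 6.14 and 6.16 in the non-OB grafts and 6.61, 6.46 and 6.58 in the sham lungs. It was below sham on all 6 grafts, with a change of -0.90 ± 0.19 (SE, adjusted p = 0.0312) in OB, which passed the adjusted p and missed the 2-fold threshold. Over the settings tried, the Rfx2 change in OB ran from -1.01 to -0.29. Rfx3, which acts in both primary and motile cilia, read 8.60, 8.48 and 8.78 in the OB grafts, 8.35, 8.79 and 8.96 in the non-OB grafts and 9.27, 9.36 and 9.48 in the sham lungs, again with no overlap between grafts and sham, and changed by -0.75 ± 0.21 (SE, adjusted p = 0.0799) in OB. Ccno, the cyclin needed for basal body amplification, read 9.29, 7.12 and 7.46 in the OB grafts, 8.05, 8.16 and 7.64 in the non-OB grafts and 8.65, 9.02 and 9.03 in the sham lungs. OB 1 was its highest array, so OB and sham overlapped, and the change was -0.94 ± 0.51 (SE, adjusted p = 0.366).

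Mcidas, the geminin-family activator of multiciliation, went the other way on its brighter probe. That probe read 13.23, 14.49 and 14.33 in the OB grafts, 13.92, 13.89 and 14.52 in the non-OB grafts and 13.94, 13.17 and 13.04 in the sham lungs, a change of 0.64 ± 0.40 (SE, adjusted p = 0.384) in OB, with overlapping groups. A second Mcidas probe, well above background on 5 of the 9 arrays, had group means of 4.37 in OB, 4.64 in non-OB and 5.26 in sham, a change of -0.89 (adjusted p = 0.284). The 2 probes thus differed in direction, neither was called, and no direction is given for Mcidas. Among the 22 genes with several probes, only Mcidas and Spag17 had probes of opposite sign for the allografts together, and the second Spag17 probe was above background on 0 arrays. In non-OB alone, Dnah9, Dnah6 and Cfap43 also had a probe of opposite sign. The second Dnah9 probe changed by 0.36 ± 0.68 (SE, adjusted p = 0.797) there, against -1.40 for the probe used. Over all 76 member probes, 72 were lower in the allografts than in sham.

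The RFX factors bind a motif called the X-box, whose core GTTGCC was searched on both strands in RefSeq promoters of the GRCm38.p6 assembly (250 bases before to 50 bases after each start). Of the 50 measured and 5 unmeasured members, 45 had a promoter in the table, and 22 of these (48.9%) held it, against 14.1% of all 27025 genes and 14.3% of the 17492 protein-coding genes. Within the 60 bases just before the start it was found in 24.4% of the members and 3.46% of all genes. A paired form, GTTGCC followed after at most 3 bases by GGNAAC, occurred in 1 member, Pifo (2.22%, all genes 0.644%). The forkhead core GTAAACA occurred in 2 members (4.44%, all genes 4.05%). Of the 21 members called in the allografts, 16 had a promoter and 9 of these held the core. The same core was found in 56.0% of 50 other motile cilium genes and in 44.1% of 34 genes of intraflagellar transport and the primary cilium, and in the 60 bases before the start in 32.0% and 8.82% of them. A match is a run of letters, not a measured binding site.

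The promoters of the 7 members that were called lower in the allografts and held the core in the 130 bases before the start are printed because they show where the letters lie. Each runs 5′ to 3′ along the strand of its gene and ends at the base before the start, in GRCm38.p6 coordinates from RefSeq. Capitals mark the core on either strand (GTTGCC or GGCAAC), and in Pifo the paired form.
Spag16, chr1:69826840-69826969, plus strand: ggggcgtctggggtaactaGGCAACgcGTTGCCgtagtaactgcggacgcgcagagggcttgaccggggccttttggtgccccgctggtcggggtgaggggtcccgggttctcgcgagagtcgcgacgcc
Pifo, chr3:106001498-106001627, minus strand: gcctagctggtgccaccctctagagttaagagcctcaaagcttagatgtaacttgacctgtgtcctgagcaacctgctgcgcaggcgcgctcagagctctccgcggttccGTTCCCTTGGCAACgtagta
Drc1, chr5:30281263-30281392, plus strand: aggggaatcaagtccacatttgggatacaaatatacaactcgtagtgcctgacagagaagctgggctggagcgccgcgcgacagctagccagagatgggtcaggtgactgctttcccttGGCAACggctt
Ccdc113, chr8:95533970-95534099, plus strand: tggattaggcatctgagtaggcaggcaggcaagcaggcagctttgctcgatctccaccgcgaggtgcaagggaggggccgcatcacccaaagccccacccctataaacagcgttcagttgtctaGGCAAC
Hydin, chr8:110266847-110266976, plus strand: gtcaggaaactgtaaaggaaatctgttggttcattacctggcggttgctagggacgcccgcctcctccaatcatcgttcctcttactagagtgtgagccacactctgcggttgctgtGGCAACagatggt
Dynlrb2, chr8:116504885-116505014, plus strand: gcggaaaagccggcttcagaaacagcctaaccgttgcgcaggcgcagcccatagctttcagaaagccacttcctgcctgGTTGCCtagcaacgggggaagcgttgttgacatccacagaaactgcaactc
Dnai2 (RefSeq symbol Dnaic2), chr11:114727289-114727418, plus strand: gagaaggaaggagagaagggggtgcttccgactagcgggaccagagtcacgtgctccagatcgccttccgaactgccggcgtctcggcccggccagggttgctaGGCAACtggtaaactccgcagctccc
Spag16 held a core on each strand close together. In Pifo, Drc1, Ccdc113, Hydin and Dnai2 the core was on the opposite strand and close to the start, and in Dynlrb2 it was on the strand of the gene.

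**Figure D3:**
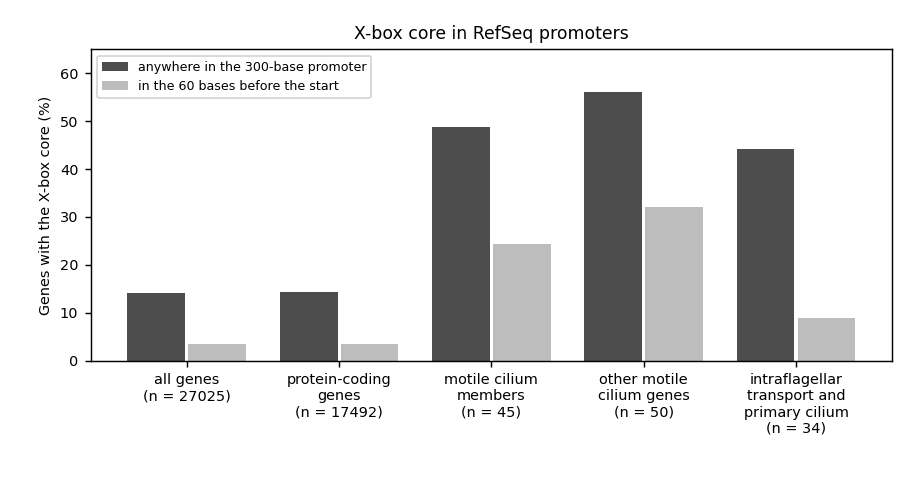
Bars give the percentage of genes whose RefSeq promoter held the X-box core on either strand, anywhere in the 300 bases (dark) or in the 60 bases before the start (light), with the number of genes under each group. The members (48.9% and 24.4%) stood above all genes (14.1% and 3.46%).

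Outer dynein arms, which give the cilium its beat frequency, were lower in OB for 5 of 5 genes, with no overlap with sham in any (median -1.38). Such non-overlap held for 32.8% of the genes above background in sham. Dnah9, a heavy chain of the outer arm of the distal axoneme, read 9.03, 8.15 and 8.92 in the OB grafts, 8.58, 9.26 and 9.14 in the non-OB grafts and 10.22, 10.47 and 10.50 in the sham lungs. All grafts were more than 1 log2 unit below the sham mean, and the change was -1.69 ± 0.29 (SE, adjusted p = 0.015) in OB, 3.23-fold lower, and -1.40 ± 0.29 (SE, adjusted p = 0.0469) in non-OB. Dnai1, an intermediate chain, read 8.88, 8.33 and 8.77 in the OB grafts, 8.60, 9.16 and 9.53 in the non-OB grafts and 9.79, 10.21 and 10.13 in the sham lungs. It was called in OB, at -1.38 ± 0.28 (SE, adjusted p = 0.0277), and its highest graft was non-OB 3. Dnah5, the other main heavy chain and the brightest of this group in sham, read 9.27, 8.33 and 9.50 in the OB grafts, 8.44, 9.79 and 8.79 in the non-OB grafts and 10.01, 10.59 and 10.67 in the sham lungs. Its change was -1.39 ± 0.43 (SE, adjusted p = 0.113) in OB and -1.41 ± 0.43 (SE, adjusted p = 0.151) in non-OB, with no overlap with sham, and it was called for the 6 grafts together, at -1.40 ± 0.35 (SE, adjusted p = 0.0415). Dnai2, the second intermediate chain, read 8.52, 8.24 and 8.69 in the OB grafts, 7.87, 9.07 and 8.49 in the non-OB grafts and 9.34, 9.76 and 10.00 in the sham lungs. It had the smallest change of the group, -1.21 ± 0.33 (SE, adjusted p = 0.0727) in OB, and was likewise called for the grafts together, at -1.22 ± 0.26 (SE, adjusted p = 0.024). Ccdc151, a docking factor of the outer arm, read 9.07, 8.16 and 8.51 in the OB grafts, 8.15, 8.73 and 9.45 in the non-OB grafts and 9.57, 9.90 and 9.79 in the sham lungs and changed by -1.17 ± 0.36 (SE, adjusted p = 0.11) in OB, with all grafts below sham and no call. Dnah11, a heavy chain of the proximal axoneme, changed by -1.28 ± 0.34 (SE, adjusted p = 0.072) in OB.

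Inner dynein arms, which shape the bend, were lower in OB for 6 of 6 genes (median -1.07). Dnah6, a single-headed heavy chain and the brightest of them, read 10.78, 10.28 and 11.05 in the OB grafts, 10.46, 11.52 and 11.80 in the non-OB grafts and 12.10, 12.28 and 12.46 in the sham lungs. It was called in OB at -1.57 ± 0.36 (SE, adjusted p = 0.0443), 2.98-fold lower. In non-OB 2 and non-OB 3 it was within 1 log2 unit of sham, and non-OB 1 lay within the OB range. Dnali1, a light chain of the inner arm, read 10.24, 8.93 and 10.07 in the OB grafts, 9.39, 10.42 and 10.23 in the non-OB grafts and 11.14, 11.33 and 11.33 in the sham lungs. OB 2 and non-OB 1 were again lowest, and it changed by -1.52 ± 0.39 (SE, adjusted p = 0.0653) in OB and was called for the grafts together, at -1.39 ± 0.33 (SE, adjusted p = 0.0342). Dnah2 had the smallest change, with 9.43, 8.99 and 9.25 in the OB grafts, 8.80, 9.27 and 10.41 in the non-OB grafts and 9.87, 9.85 and 10.26 in the sham lungs. Non-OB 3 was above all sham lungs, and the change in OB was -0.77 ± 0.39 (SE, adjusted p = 0.327). Dnah1 was well above background on all 3 sham arrays and on 0 OB arrays. The ratio of its group means is therefore a bound, at least 1.53-fold lower in OB. That bound leaves out the spread among animals, and the fitted change of -0.92 ± 0.51 (SE, adjusted p = 0.37) was not called. Dnah7a has close copies in the mouse genome that its probe may not separate, and it changed by -1.10 ± 0.33 (SE, adjusted p = 0.104) in OB. For Dnah10 the change was -1.04 ± 0.37 (SE, adjusted p = 0.165).

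Drc1, the scaffold of the nexin link and dynein regulatory complex, read 11.46, 10.16 and 11.19 in the OB grafts, 10.56, 11.68 and 11.72 in the non-OB grafts and 12.39, 12.65 and 12.56 in the sham lungs. OB 2 and non-OB 1 were lowest, no graft reached sham, and the 6 grafts together were called at -1.40 ± 0.36 (SE, adjusted p = 0.0434). Ccdc39, part of the ruler that sets the spacing of arms and spokes, read 7.27, 7.07 and 7.18 in the OB grafts, 6.68, 7.57 and 8.09 in the non-OB grafts and 8.24, 8.25 and 8.32 in the sham lungs. No graft reached sham here either, and the change was -1.10 ± 0.33 (SE, adjusted p = 0.0993) in OB.

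Radial spoke genes were lower in 3 of 3, with no overlap with sham in either graft group. The same held for 32.8% of the genes above background in sham in OB, and for 26.6% in non-OB. Rsph4a, a spoke head protein, had the largest change, with 7.55, 6.53 and 7.61 in the OB grafts, 6.86, 8.05 and 7.42 in the non-OB grafts and 8.61, 8.77 and 8.89 in the sham lungs. It was called for the grafts together at -1.42 ± 0.31 (SE, adjusted p = 0.0254), as was Rsph1, another head protein, at -1.29 ± 0.30 (SE, adjusted p = 0.0294). Rsph1 read 9.87, 8.99 and 9.81 in the OB grafts, 9.05, 10.28 and 9.76 in the non-OB grafts and 10.69, 11.00 and 11.07 in the sham lungs. The brightest, Rsph9, read 11.64, 11.15 and 11.76 in the OB grafts, 10.86, 11.93 and 11.77 in the non-OB grafts and 12.06, 12.27 and 12.29 in the sham lungs. Its grafts lay closest to sham, with the smallest change of the group, -0.69 ± 0.31 (SE, adjusted p = 0.265) in OB.

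Of the 6 central apparatus genes 3 were called lower in OB, as were 3 of the 9 tubule-associated genes and 2 of the 5 outer arm genes. Of all probes 2.43% were called lower, and of the genes above background in sham 5.17%. Hydin, a giant protein of the central pair, read 7.98, 7.03 and 7.71 in the OB grafts, 7.55, 8.21 and 7.78 in the non-OB grafts and 8.82, 9.12 and 9.08 in the sham lungs, a change of -1.44 ± 0.29 (SE, adjusted p = 0.0267). Spag16, a projection protein, read 6.73, 6.18 and 6.84 in the OB grafts, 6.25, 6.85 and 6.88 in the non-OB grafts and 7.83, 8.31 and 8.17 in the sham lungs. Its change was -1.52 ± 0.27 (SE, adjusted p = 0.0174) in OB and -1.45 ± 0.27 (SE, adjusted p = 0.0343) in non-OB, close to each other, and it had the lowest adjusted p of any member for the grafts together, -1.48 ± 0.22 (SE, adjusted p = 0.00483). Spag6l, a mouse copy of Spag6, read 9.21, 7.86 and 8.93 in the OB grafts, 8.61, 9.52 and 8.53 in the non-OB grafts and 10.23, 10.48 and 10.25 in the sham lungs, a change of -1.65 ± 0.39 (SE, adjusted p = 0.0497) in OB, with OB 2 more than 1 unit below OB 1 and OB 3. Spag6 itself was well above background on 0 of the 9 arrays, so its fitted change of 0.43 ± 0.25 (SE, adjusted p = 0.372) is not a measured difference. Its sequence is close to that of Spag6l, and the probes may not separate them fully. Stk36 and Spag17 changed by -0.61 ± 0.31 (SE, adjusted p = 0.331) and -0.96 ± 0.39 (SE, adjusted p = 0.213).

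Tektins and other tubule-associated genes were lower in 9 of 9, and in all 9 neither graft group overlapped with sham. Of the genes above background in sham, 32.8% lay wholly below sham in OB and 26.6% in non-OB. Tppp3, a tubulin-binding protein and the brightest member, read 15.05, 14.09 and 14.64 in the OB grafts, 14.91, 15.41 and 14.69 in the non-OB grafts and 16.18, 16.32 and 16.15 in the sham lungs. It was called in OB at -1.63 ± 0.29 (SE, adjusted p = 0.0175), 3.08-fold lower. Pifo, a protein of the base of the cilium, had the largest change of all members in OB, with 8.01, 7.08 and 7.95 in the OB grafts, 7.42, 8.59 and 8.09 in the non-OB grafts and 9.03, 9.58 and 9.56 in the sham lungs and -1.70 ± 0.37 (SE, adjusted p = 0.0359), 3.26-fold lower. Tekt4, a filament protein inside the doublets, read 10.23, 9.72 and 10.09 in the OB grafts, 9.64, 10.70 and 10.49 in the non-OB grafts and 11.08, 11.35 and 11.32 in the sham lungs, a change of -1.24 ± 0.30 (SE, adjusted p = 0.0496). Its non-OB 1 array was below all OB arrays. Cfap52 and Cfap126, a doublet inner protein and a protein of basal bodies and doublets, were called for the grafts together at -1.20 ± 0.27 (SE, adjusted p = 0.0271) and -1.14 ± 0.27 (SE, adjusted p = 0.0323). Tekt1, Tekt2 and Cfap53 were not called in any comparison, with changes of -1.40 ± 0.43 (SE, adjusted p = 0.11), -1.26 ± 0.35 (SE, adjusted p = 0.0835) and -0.55 ± 0.33 (SE, adjusted p = 0.374) in OB. Mns1 had the smallest change, with 10.14, 9.84 and 9.92 in the OB grafts, 9.83, 9.98 and 10.09 in the non-OB grafts and 10.34, 10.38 and 10.47 in the sham lungs. Its arrays varied little and the grafts did not overlap with sham, and the change was -0.43 ± 0.17 (SE, adjusted p = 0.2) in OB.

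Ccdc113 was the brightest and most changed of the group of tether and other axonemal genes, with 10.43, 9.18 and 10.15 in the OB grafts, 9.83, 10.70 and 10.68 in the non-OB grafts and 11.24, 11.57 and 11.61 in the sham lungs and a call for the grafts together of -1.31 ± 0.33 (SE, adjusted p = 0.0436). Cfap43 and Cfap44, parts of the tether of the dynein motor heads, changed by -0.89 ± 0.35 (SE, adjusted p = 0.207) and -1.02 ± 0.41 (SE, adjusted p = 0.211) in OB, and non-OB 3 was within the sham range for both. Cfap61 was above background on 0 OB, 1 non-OB and 1 sham array, and carries no direction. Cfap69 read 9.92, 10.02 and 9.96 in the OB grafts, 9.78, 10.19 and 10.97 in the non-OB grafts and 10.75, 10.46 and 10.70 in the sham lungs. It changed by -0.67 ± 0.29 (SE, adjusted p = 0.25) in OB and by -0.33 ± 0.29 (SE, adjusted p = 0.553) in non-OB, where non-OB 3 was above all sham arrays.

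The dynein assembly factors, which fold and preload the arms in the cytoplasm, were split. Zmynd10, which acts with Lrrc6, read 8.99, 7.57 and 8.35 in the OB grafts, 8.06, 8.94 and 8.99 in the non-OB grafts and 9.75, 9.42 and 9.94 in the sham lungs. All grafts were below sham, and the change was -1.40 ± 0.40 (SE, adjusted p = 0.0875) in OB. Lrrc6 changed by -1.15 ± 0.29 (SE, adjusted p = 0.0604) in OB and was called for the grafts together at -1.05 ± 0.24 (SE, adjusted p = 0.0304). Dnaaf3, the brightest, did not follow. It read 10.94, 11.06 and 11.13 in the OB grafts, 10.87, 11.13 and 10.92 in the non-OB grafts and 10.66, 10.83 and 11.05 in the sham lungs, with overlapping groups and a change of 0.19 ± 0.18 (SE, adjusted p = 0.551), and its 95% confidence interval excluded a 2-fold change either way. Dnaaf1 read 4.63, 5.52 and 4.11 in the OB grafts, 4.47, 4.08 and 7.50 in the non-OB grafts and 5.16, 5.17 and 5.29 in the sham lungs. Non-OB 3 was more than 2 log2 units above the other non-OB grafts, and only 1 OB and 2 non-OB arrays were well above background, so the groups were not separable.

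Of the adenylate and nucleotide kinases of the cilium, Nme5 was called for the grafts together at -1.09 ± 0.29 (SE, adjusted p = 0.0496), and Ak7 changed by -1.27 ± 0.39 (SE, adjusted p = 0.111) in OB. Ak8 read 8.54, 7.99 and 8.90 in the OB grafts, 8.06, 8.99 and 7.94 in the non-OB grafts and 9.08, 9.55 and 9.61 in the sham lungs, with the smallest change of these genes in OB, -0.94 ± 0.35 (SE, adjusted p = 0.185). Dynlrb2, a dynein light chain, read 12.61, 11.32 and 12.37 in the OB grafts, 11.37, 12.72 and 12.27 in the non-OB grafts and 13.11, 14.03 and 14.08 in the sham lungs. It had the largest change of any member for the grafts together, -1.63 ± 0.39 (SE, adjusted p = 0.0333), and in OB, where OB 2 lay more than 1 unit below OB 1 and OB 3, it missed the call at -1.64 ± 0.47 (SE, adjusted p = 0.0912).

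**Figure D4:**
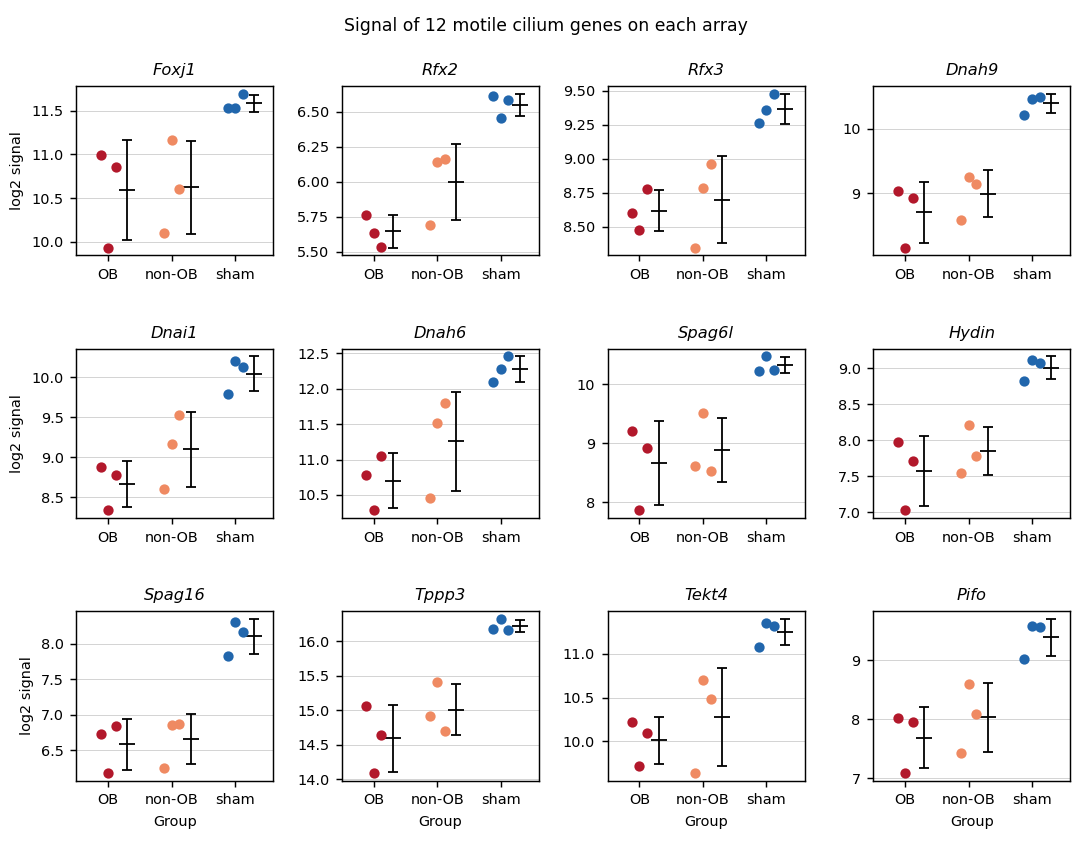
Each panel gives the log2 signal of 1 gene on each array, for Foxj1, Rfx2, Rfx3 and the 9 genes called lower in OB. Coloured points are arrays (red OB, orange non-OB, blue sham) and the black bar beside them is the mean with its SD (n = 3). The sham points sit above all graft points in every panel, and the lowest point is OB 2 or non-OB 1 in every panel but that of Rfx2.

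Other genes of motile cilia and ciliated cells were lower in the grafts as well. Of 59 other motile cilium genes, 57 were lower in OB, 8 were called lower and 0 higher, with a median of -1.05, and for the 6 grafts together 20 were called lower at a median of -0.98. Tubb4b, the brightest of them in sham and a tubulin of the axoneme, changed by -0.90 in OB, and Cfap300, the next brightest, went against the list at 0.47 (adjusted p = 0.478), as did Dnaaf6 at 0.04, which was above background on 0 sham arrays. Of 15 genes that mark ciliated cells and lie outside the axoneme, 15 were lower in OB and 4 were called, at a median of -1.19. Sec14l3, the brightest, changed by -1.92 (adjusted p = 0.0134), and Ccdc153, the next, changed by -1.37 (adjusted p = 0.0991). Of 40 genes of intraflagellar transport and the primary cilium, which many cell types use, 37 were lower in OB and 0 were called in either direction, at a median of -0.53. The 3 that went against the list were Wdr34, its brightest gene (0.35), Ift140 (0.19) and Mks1 (0.03), none past the adjusted p.

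Among 12 other multiciliation regulators, 8 were lower and 4 higher in OB, at a median of -0.37, and 1 was called. That one was Gmnc, the geminin-family protein that acts at the top of the programme. It read 4.22, 2.51 and 2.72 in the OB grafts, 4.03, 3.95 and 2.32 in the non-OB grafts and 5.04, 6.96 and 7.16 in the sham lungs. It was well above background on all sham arrays and on 0 graft arrays, so the ratios of its group means are bounds. They were at least 3.78-fold lower in OB (adjusted p = 0.0424) and at least 3.75-fold lower in non-OB (adjusted p = 0.0873). These bounds leave out the spread among animals, and the non-OB difference was not called. Plk4 and Cep152, which also build centrioles in dividing cells, went against the list at 0.89 and 0.87 in OB, as did Cdc20b (0.14) and E2f4 (0.06), none called. The brightest regulators, Cep63 and Myb, changed by -0.35 and -0.74. Of 17 genes of the sperm tail and spermatids, 10 were above background on 0 arrays, 1 was called lower in OB (Tekt5) and 1 higher (Prm1), and the median was 0.23.

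**Figure D5:**
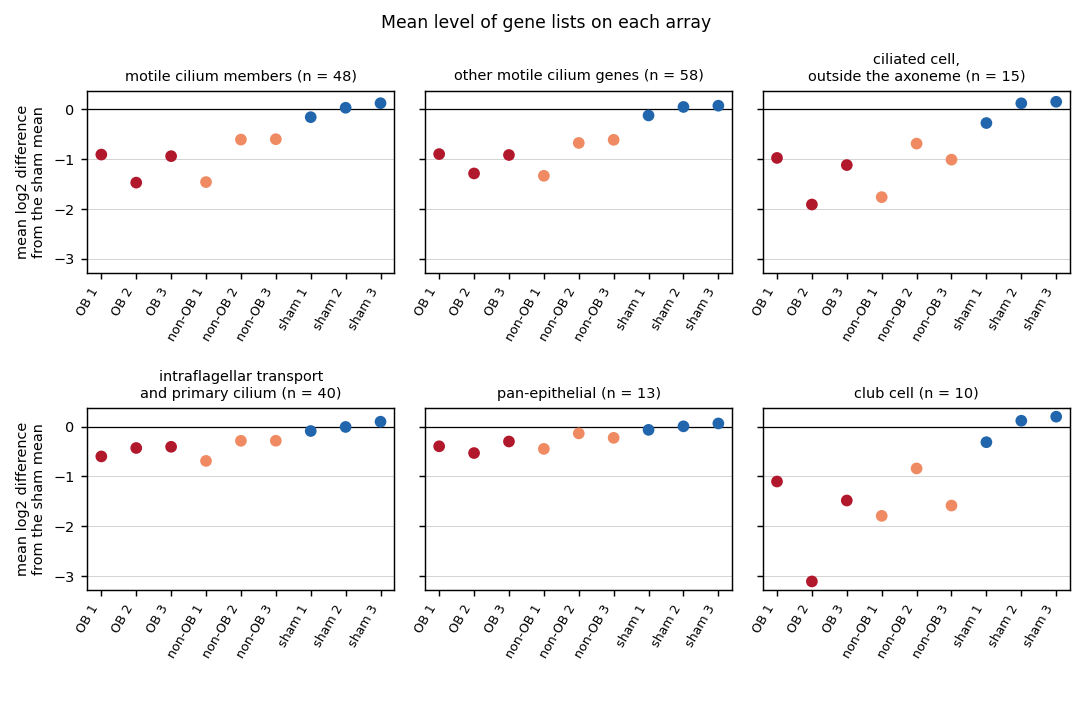
Each panel gives, for 1 gene list, the mean over its genes (n above the panel, those above background on all sham arrays) of the log2 signal minus the sham mean, on each array. The members, the other motile cilium genes and the other ciliated cell genes share the low points of OB 2 (-1.47 for the members) and non-OB 1 (-1.46). The pan-epithelial genes stay between -0.53 and 0.06, and club cell genes reach -3.11 in OB 2.

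Markers of other cells moved with the groups, and their part in the change of the members was not tested. Pan-epithelial genes (13, such as Krt18 and Krt8) had a median change of -0.44 in OB with 0 called, and their summed linear signal ran from 66079 to 77382 in OB, 76742 to 95782 in non-OB and 104110 to 112690 in sham. Against the mean of this list on the same array, the members were at -0.51, -0.94 and -0.64 in OB 1 to 3, -1.01, -0.47 and -0.37 in non-OB 1 to 3, and -0.09, 0.03 and 0.06 in sham 1 to 3, so every graft stayed below every sham lung. They did so against the primary cilium list too, at -0.31, -1.04 and -0.53 in OB, -0.77, -0.32 and -0.31 in non-OB and -0.07, 0.04 and 0.03 in sham. Against the club cell list the order turned, with the members at 0.20, 1.64 and 0.55 in OB, 0.33, 0.23 and 0.99 in non-OB and 0.16, -0.08 and -0.07 in sham, so every graft lay above every sham lung. Club cell genes (10) had a median of -1.91 in OB with 3 called lower, and their mean was -3.11 in OB 2, the lowest array. Basal cell genes (8) stood at 2.76 in OB 2 and between -0.24 and 0.66 in the other grafts. Alveolar type 2 genes had a median of -0.03 with 0 called, and alveolar type 1 genes -1.10 with 3 of 7 called lower. Of 9 T cell genes, 8 were called higher in OB at a median of 2.17, and of 8 macrophage genes 5 were, at a median of 2.10. Cardiac muscle, which in mice sheathes the large pulmonary veins, gave 7 of 9 genes called lower in OB at a median of -4.80, and 7 of 8 smooth muscle genes were called lower at -1.57. Medians were 0.53 for goblet cell, -0.24 for neuroendocrine and tuft cell, 0.77 for fibroblast and 0.89 for cartilage genes in OB. In these lists, 1 goblet cell gene and 1 neuroendocrine or tuft cell gene were called higher, and 1 fibroblast gene lower. Of the 9 cartilage genes, 4 were above background on 0 arrays. The lung label was borne out by Sftpc, the surfactant protein of alveolar type 2 cells, and Scgb1a1, the club cell secretoglobin, with sham means of 18.57 and 18.59. How much large airway and vessel each RNA piece held is not given in the sources used here.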

How the data were processed

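Total RNA from frozen tissue of each left lung was labelled with Cy3 and hybridised to a single-colour Agilent SurePrint G3 8x60K array. The authors extracted spot intensity with Agilent Feature Extraction 12.0.3.1, which subtracts background and removes spatial trends, and the deposited intensity values of the scanner output, used here, were not scaled between arrays. The deposited value table of the series holds the same signals after the scaling by the authors. Here each array was scaled to a trimmed mean of 2500 (2% trimmed at each end), the global scaling named in the methods of the study (factors 1.25 to 2.05), and log2 was taken. Control spots and outlier spots were left out, spots of a probe were averaged, and 56601 probes were tested.

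Groups came from the sample labels, with 3 arrays each. The fits used limma 3.58.1 under R 4.3.3 (functions lmFit and eBayes). One fit ran over OB, non-OB and sham together and another set the 6 allografts against sham, with Benjamini-Hochberg adjustment over all probes. A call needed an adjusted p under 0.05 and, against sham, a 2-fold change; OB against non-OB had no fold threshold. The script was tested on simulated data. Adjusted p-values in the text are of these fits. A probe not well above background on every array of a group gives a bound, the mean of the bright group against the higher of the lowest signal well above background and its own signal on each array. Genes were named through the accession of each probe in RefSeq, and Dnai1 and Dnai2 appear there as Dnaic1 and Dnaic2. Values by array are given for the regulators, for the brightest, most changed and least changed gene of each role, and for called members up to 15 by size of change, and of the other lists near the members the 2 brightest genes and those against the list are named; Tekt5, Prm1, Gmnc and a few members were named after their values were seen. The members, gene lists and comparisons were chosen with earlier results of these data known. The number of arrays limits the precision. Scaling, background correction, filters, the slide, the sham strain, the choice of probe and leaving out each array were varied, and the methods' t-test was run on the same values. The comparisons with sham share the sham arrays.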

Additional observations from a re-analysis of the deposited data

Results flagged for a closer look

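Among the 51 levels tested over the 6 grafts (the 50 members and their mean), 1 array stood apart from the others by Dixon's test at the 95% level, which chance alone passes in about 1 of 20 groups. It was Cfap69 on non-OB 3, with a log2 signal of 10.97 against 9.78 to 10.19 on the other 5 grafts (median 9.96), a gap of 0.652 of the whole range where 0.625 is the critical value. Cfap69 was called in no comparison.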

How the results depend on the processing

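Against sham, the median change was below 0 and no member was called higher under every setting run, while counts of calls moved. The median between OB and non-OB changed sign on slide 1. Against 9 members called in OB, the count was 5 with the 75th percentile and 4 with quantile scaling, 22 of 48 with only probes above background, 21 with a trended robust prior, 31 at an unadjusted p, 31 with the methods' t-test unadjusted and 1 after Benjamini-Hochberg, 0 with the slide as a block, 19 with it as a random block, 3 with the replicate block, 0 against the C57BL/10 sham, 2 against the C57BL/6 shams, 4 with all probes of a gene averaged and 0 within slide 1 (within-slide fits were chosen after seeing the data). Against 2 in non-OB (402), these counts were 1 with the 75th percentile (308) and 1 with quantile scaling (437). They were 4 filtered (708 of 35038), 21 unadjusted (1657), and 18 (1405) and 0 (0) with the t-test. With the slide they were 0 as a fixed block (0) and 5 as a random block (881), and 0 with the replicate block (127). They were 0 against the C57BL/6 shams (125), 0 with averaged probes (256 of 46519) and 0 when fitted without the OB arrays (194). Against 21 for the allografts (1438), they were 12 with normexp (627), 0 with the slide (366) and 9 with the replicate block (1190). They were 8 against the C57BL/6 shams (811) and 0 within slide 1 (0). Lone arrays were taken to vary like the other groups. Medians moved to -1.48 for non-OB within slide 1 and, for OB against non-OB, to 0.59 within slide 1 and -0.77 within slide 2. Leaving out 1 array gave 0 to 18 calls in OB, 0 to 2 in non-OB, 0 to 0 between them and 2 to 25 in allografts, with medians of -1.30 to -1.02, -1.13 to -0.64, -0.50 to -0.01 and -1.17 to -0.94. Replicate numbers did not pair the arrays (same-number correlations -0.40 to 0.28), and the block called 0 members between OB and non-OB. Over all probes, deviations of OB and non-OB arrays from their group means correlated at 0.28, 0.45 and 0.18 on slides 1 to 3. Pairs on different slides ran from -0.45 to 0.23. The member means did not move together on slides 1 and 2. OB 1 (-0.91) lay above the OB mean (-1.10) and non-OB 1 (-1.46) below the non-OB mean (-0.89). OB 2 (-1.47) lay below its group mean and non-OB 3 (-0.60) above. On slide 3 both OB 3 (-0.94) and non-OB 2 (-0.61) lay above. A block for the slide called 0 members between these groups, at a median of -0.23. Normexp moved the all-probe median from 0.08 to -0.05 in OB and from 0.13 to -0.01 in non-OB. The cause of these moves was not tested. With 3 arrays a group, differences near 2-fold were at the limit of detection.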
